A study of Mus musculus with 19 samples.

Results

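The brown adipose tissue (BAT) library of a 7-tissue RNA-Seq table was described against the 6 other tissues of that table, 1 library each, and the series holds 19 libraries in all. The library was chosen by its tissue label alone, and each of the 55573 listed genes was used once. The study looked for muscle-secreted factors that act on adipose tissue, and the tissue panel served to show where candidate genes, among them *Musclin*, are expressed. The 7 libraries came from C57BL/6J wild-type (WT) male mice and were made from BAT, white adipose tissue (WAT), heart, tibialis anterior (TA) muscle, liver, small intestine and brain. The age and diet of these mice, the number of animals behind a library and the white adipose depot were not given in the sources used here. With no second library of any of these tissues, no difference between tissues has a replicate check, and no test was run. For BAT alone, 3 further WT libraries from another table were set beside it, from male chow-fed mice 5 months old that were kept at 8 °C for 1 week. The inguinal WAT libraries of such mice, and the libraries of MCK-Musclin mice, whose muscle makes extra *Musclin*, make up the rest of the series and enter no comparison here.

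Brown fat is an adipose tissue that makes heat. Noradrenaline released by sympathetic nerves acts on β-adrenergic receptors, cyclic AMP rises, lipases free fatty acids from many small lipid droplets, and the fatty acids are burned in densely packed mitochondria. There, uncoupling protein 1 lets protons return across the inner membrane without making ATP, so that the energy of respiration leaves as heat.

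Promoters were examined for the genes that stood highest in BAT, since nuclear receptors of the PPAR and thyroid hormone receptor families and cyclic AMP-responsive factors are known regulators of thermogenic genes. Of the 19 nuclear genes called high in BAT, 8 matched a RefSeq promoter window of 300 bases, 250 before and 50 after a start. The letters searched were AGGTCA, the nuclear receptor half-site, and TGACG, the cAMP response element half-site, on both strands. The 8 genes had 10 windows, of which 3 (30.0%) held AGGTCA and 2 (20.0%) held TGACG, against 16.3% and 20.8% of all 32851 windows. Of the 755 windows of genes with their highest value in BAT, 15.2% held AGGTCA and 35.5% held TGACG. Among windows of genes that passed the filter on low values these shares were 13.1% and 29.1%. The 3 windows with AGGTCA are shown, RefSeq sequence of GRCm38.p6 written 5′ to 3′ on the strand of the gene, with the motif in capitals. They are *Ucp1* at chr8:83290098-83290397 on the plus strand, *Letmd1* at chr15:100468761-100469060 on the plus strand and an inner start of *Coq8a* at chr1:180193436-180193735 on the minus strand.
Ucp1: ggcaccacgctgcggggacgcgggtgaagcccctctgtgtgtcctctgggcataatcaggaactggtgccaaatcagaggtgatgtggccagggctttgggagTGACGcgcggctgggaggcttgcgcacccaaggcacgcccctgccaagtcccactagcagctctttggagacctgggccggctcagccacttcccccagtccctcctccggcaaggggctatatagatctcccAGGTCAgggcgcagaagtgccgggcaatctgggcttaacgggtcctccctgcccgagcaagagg
Letmd1: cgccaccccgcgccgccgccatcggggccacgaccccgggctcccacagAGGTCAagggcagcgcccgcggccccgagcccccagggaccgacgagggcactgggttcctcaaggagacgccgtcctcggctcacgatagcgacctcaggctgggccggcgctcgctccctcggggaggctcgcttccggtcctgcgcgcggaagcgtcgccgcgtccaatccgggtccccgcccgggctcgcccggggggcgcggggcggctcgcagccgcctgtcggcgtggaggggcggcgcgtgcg
Coq8a: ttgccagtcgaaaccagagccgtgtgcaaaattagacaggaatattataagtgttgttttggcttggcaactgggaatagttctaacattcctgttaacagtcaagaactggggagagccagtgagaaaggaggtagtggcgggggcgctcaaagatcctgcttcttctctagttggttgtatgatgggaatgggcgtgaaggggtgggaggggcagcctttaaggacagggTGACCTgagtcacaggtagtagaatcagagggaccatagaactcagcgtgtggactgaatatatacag
In *Ucp1* the first base of AGGTCA lies at -14 from the start and that of TGACG at -147. In *Letmd1* AGGTCA begins at -201. In *Coq8a* the motif reads TGACCT, the opposite strand, and begins at -18, while the outer start of this gene holds neither motif. The motifs do not overlap each other in these windows. A match of letters is a description and says nothing of binding in these samples.

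The values are FPKM, fragments per kilobase of exon scaled to the number of mapped fragments, so levels of genes can be set side by side within a library. The summed FPKM ran from 393682 in brain and 420150 in WAT to 711437 in BAT, and levels across tissues therefore depend on the scaling. Steps between the lowest values implied a depth, in units of 1000000 fragments, of about 18.5 in BAT and 16.1 to 17.9 in the other tissues. Over all fragments the BAT library was thus not shallower than the rest. The steps held 11.4% to 14.9% of the low genes of 1 exon used for this, and depth over nuclear genes alone was not estimated. BAT held 19665 genes above 0 FPKM, and 11478 at 1 FPKM or more. Genes encoded by the mitochondrial genome took 53.8% of the summed FPKM in BAT and 53.6% in heart, against 29.2% in TA muscle, 21.8% in brain, 19.0% in liver, 15.7% in small intestine and 13.3% in WAT. BAT and heart thus stood together, far above WAT. In the 3 cold BAT libraries the share was 50.6%, 50.7% and 52.0%. A further 7 pseudogenes on chromosome 1, whose sequences share 97.2% to 100% of their 31-base words with mitochondrial genes, held 24.6% of the nuclear FPKM in BAT, 19.6% in heart and 3.54% in WAT. Reads of mitochondrial origin and reads of these copies cannot be told apart, so the values of both are uncertain, and the copies are not described further. All 7 had their highest FPKM in BAT, and they stay in the counts over all genes and in the scaling over nuclear genes.

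Few genes stood far above every other tissue in this BAT library. Of the 14692 genes with a mean of at least 1 FPKM over the 7 tissues, 22 were called high in BAT, that is, at least 4-fold above the highest other tissue after 1 was added to each FPKM, which is 0.150% of the genes. The same rule called 70 genes for heart, 128 for TA muscle, 168 for WAT, 434 for liver, 820 for small intestine and 1161 for brain, so this BAT library had the fewest. With each cold BAT library in its place the rule called 187, 172 and 171 genes for BAT. All 3 cold libraries called 146 genes, of which 10 were among the 22 and 45 lay below 1 FPKM in all 7 tissues. The cold libraries were normalized separately, and the part of this in the counts was not tested. Of the 22 genes, 13 were protein-coding, 19 were nuclear and 3 were mitochondrial tRNA genes. Of the 19 nuclear genes, 6 were at 1 FPKM or less in every other tissue. These 6 reached the mean of 1 FPKM only through their BAT value. For a gene absent from every other tissue, passing the filter already fixes the call. The libraries were set against each other under 5 scalings: FPKM as deposited, FPKM rescaled to a common sum over all genes (TPM), over nuclear genes, or over nuclear genes without the mitochondrial copies, and FPKM divided by the median ratio of each library to the geometric gene means. Under all 5, 11 of the 19 were called. Of the others, *Coq8a*, *P2rx5* and *Gm10032* were under the cutoff with median-ratio scaling at 1.65, 1.95 and 1.63, and *Rasl12* and *Slc36a2* with TPM at 1.73 and 1.57. The heat map of the called genes shows each of the 19 nuclear genes in every tissue and in the cold BAT libraries.

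**Figure D1:**
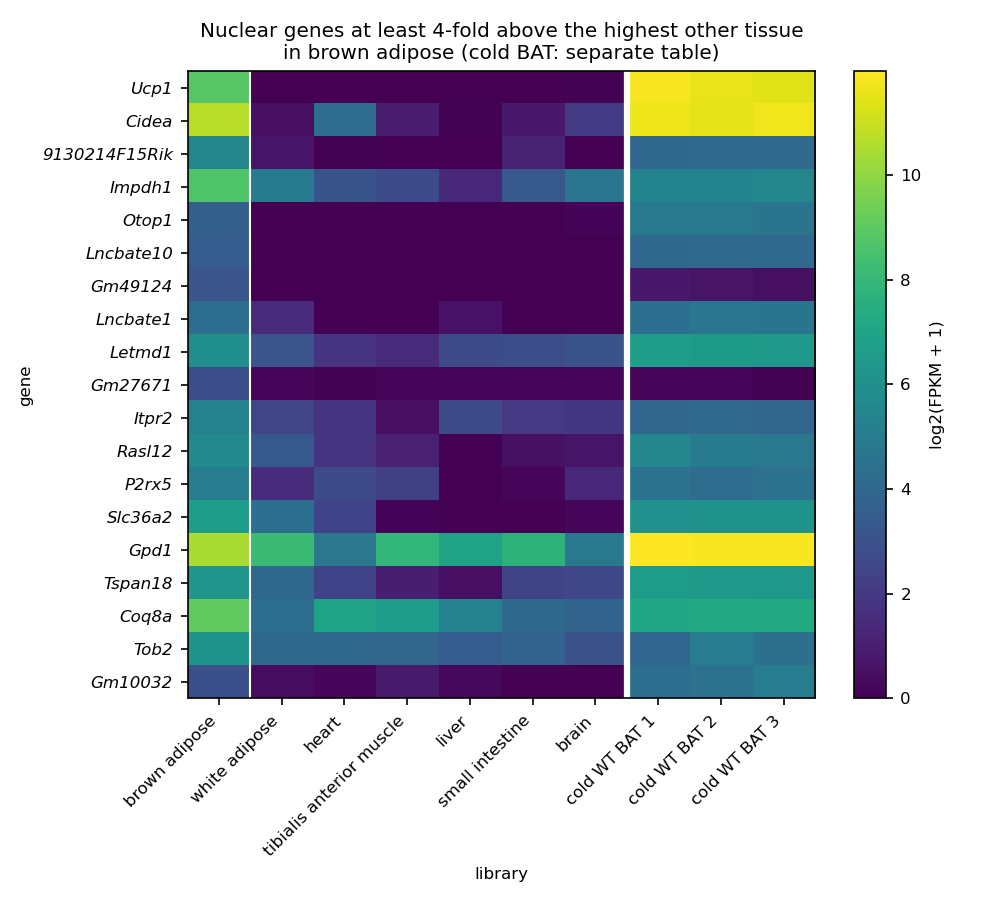
Heat map of log2(FPKM + 1) for the 19 nuclear genes at least 4-fold higher in brown adipose than in the highest other tissue, with 1 library per column and cold BAT libraries of a separately normalized table at the right. The brown adipose column is the brightest of the 7 tissues in every row, and 17 of the 19 genes also lay above the highest other tissue in all 3 cold BAT libraries. Over all genes, 1087 of 14732 were highest in brown adipose with cold BAT library 1 in its place.

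The called genes include known genes of heat production. *Ucp1* (ENSMUSG00000031710), the proton carrier of brown fat mitochondria, spans chr8:83290352-83298452 on the plus strand of GRCm38. It had 467 FPKM in BAT and 0.0355 in brain, and was listed at 0 in WAT, heart, TA muscle, liver and small intestine. Its log2 ratio to the highest other tissue was 8.82. *Cidea*, a lipid droplet protein that enlarges droplets, was the most abundant of the called genes, with 1638 FPKM in BAT, 0.385 in WAT, 18.4 in heart, 0.907 in TA muscle, 0.0500 in liver, 0.763 in small intestine and 3.08 in brain. The only other tissue with more than a few FPKM was thus heart, and the log2 ratio was 6.40. *Otop1*, a proton channel, had 11.4 FPKM in BAT and 0.0929 in brain and was listed at 0 in the 5 remaining tissues. *Letmd1*, a mitochondrial protein needed for heat production in brown fat, had 61.1 FPKM in BAT, 7.95 in WAT, 2.64 in heart, 1.66 in TA muscle, 5.99 in liver, 6.37 in small intestine and 7.49 in brain. For *Letmd1* the other 6 tissues lay between 1.66 to 7.95 FPKM, with a log2 ratio of 2.80.

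A second set of called genes works in lipid, quinone, nucleotide and amino acid metabolism. *Gpd1*, the cytosolic glycerol-3-phosphate dehydrogenase that supplies the glycerol backbone of triglycerides, had 1403 FPKM in BAT, 288 in WAT, 26.2 in heart, 245 in TA muscle, 119.8 in liver, 218 in small intestine and 26.6 in brain. WAT was the nearest tissue, and the log2 ratio was 2.28. It was under the cutoff with TPM (1.52) and with median-ratio scaling (1.73), and its exons overlap those of Gm16537 on the opposite strand, which counting without strand could not separate. *Coq8a*, an atypical kinase of coenzyme Q synthesis, had 536 FPKM in BAT, 19.2 in WAT, 117 in heart, 98.8 in TA muscle, 37.5 in liver, 15.6 in small intestine and 13.2 in brain. Heart and TA muscle were therefore its next tissues, and WAT was much lower. *Impdh1*, the IMP dehydrogenase that commits purines to guanine nucleotides, had 414 FPKM in BAT, 29.8 in WAT, 7.57 in heart, 5.47 in TA muscle, 1.57 in liver, 8.92 in small intestine and 25.1 in brain. Its log2 ratio was 3.75, and 3.02 to 4.34 over the 5 scalings. *Slc36a2*, a proton-coupled amino acid transporter found on brown adipocytes, had 99.9 FPKM in BAT, 19.6 in WAT, 4.29 in heart, 0.0929 in TA muscle, 0.0255 in small intestine and 0.164 in brain, and was listed at 0 in liver. For *Slc36a2* WAT was the only other tissue above 5 FPKM.

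The remaining called protein-coding genes include signaling proteins. *P2rx5*, an ATP-gated ion channel of the brown adipocyte surface, had 32.1 FPKM in BAT and 5.65 in heart, its next tissue. *Itpr2*, an inositol trisphosphate receptor that releases calcium from the endoplasmic reticulum, had 38.04 FPKM in BAT and 5.89 in liver. *Rasl12*, a Ras-like GTPase, had 50.5 and 8.71 FPKM in BAT and WAT. For each of these 3 genes every other tissue lay under 10 FPKM. *Tspan18*, a tetraspanin, had 75.2 FPKM in BAT and 15.7 in WAT, and *Tob2*, an antiproliferative protein of the Tob family, 72.1 and 15.4. Both were under the cutoff with TPM, with log2 ratios of 1.48 and 1.44.

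The long noncoding RNAs *Lncbate1* and *Lncbate10* are named for brown fat. *Lncbate10* had 10.1 FPKM in BAT and was listed at 0 in the 6 other tissues, and *Lncbate1* had 19.4 in BAT, 1.77 in WAT and 0.523 in liver and was listed at 0 elsewhere. The uncharacterised transcript *9130214F15Rik* had 42.2 FPKM in BAT and 1.24 in small intestine. *Gm49124* had 8.06 FPKM in BAT and was listed at 0 in the others, and *Gm10032* had 6.63 against 0.849 in TA muscle. *Lncbate10* and *Gm49124* were thus listed at 0 in every other tissue, so their calls follow from the filter on the mean. *Gm27671*, an annotated miRNA of 6.31 FPKM, shares all of its 31-base words with *Marf1* and is uncertain, as are the mitochondrial tRNA genes *mt-Tk*, *mt-Td* and *mt-Tt*, which are shorter than a typical sequenced fragment. Just inside the cutoff lay *Coq8a*, *Tob2* and *Gm10032* with log2 ratios of 2.19, 2.16 and 2.04, and just outside it *Ntrk3*, *Gm9899* and *Lctl* with 1.93, 1.93 and 1.92.

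With 1 added to each FPKM, no gene was at least 4-fold lower in BAT than in the lowest other tissue, but 15 were with 0.1 added and 54 with 0.01. Of all genes, 731 had their lowest value in BAT. With 1 added, the most negative log2 ratio to the lowest other tissue was that of *Lrrfip1*, a leucine-rich repeat interacting protein, at -1.83. It had 7.45 FPKM in BAT, 36.7 in WAT, 42.5 in heart, 86.8 in TA muscle, 29.1 in liver, 61.98 in small intestine and 49.8 in brain. *Arhgef10l*, a guanine nucleotide exchange factor, followed at -1.72, with 0.662 FPKM in BAT and 4.49 to 11.1 in the 6 others. On FPKM alone *Arhgef10l* lay further below its lowest other tissue than *Lrrfip1* did. In the cold BAT libraries *Lrrfip1* had 8.31, 7.21 and 10.6 FPKM and *Arhgef10l* 0.521, 0.359 and 0.272, all below the lowest of the 6 other tissues.

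A larger set of genes had its peak in BAT by a narrow margin. Of the 14692 genes, 831 had their highest FPKM in BAT (5.66%), with a median log2 ratio to the next tissue of 0.35. For 526 of them the ratio was under 0.5 and for 188 it lay between 0.5 and 1. The next tissue was WAT for 302 of these genes and heart for 205, followed by small intestine with 106, brain with 93, TA muscle with 68 and liver with 57. Of the 354 distinct genes of 26 functional lists that passed the filter, 153 (43.2%) were highest in BAT, and 5 were called at 4-fold: *Ucp1*, *Cidea*, *Otop1*, *Letmd1* and *Gpd1*. The lists were written with knowledge of brown fat and of earlier results, so their share is a description beside the 5.66% of all genes. The plot of list shares shows the mitochondrial lists at the top. Over the 5 scalings the counts moved, for example from 4 to 9 adrenergic genes and from 3 to 8 regulators. Triglyceride synthesis genes moved from 3 to 7 and fatty acid synthesis genes from 1 to 6. The share of all genes highest in BAT, the background of each list count, moved from 2.19% with TPM to 12.3% without the copies. The median ratio of all genes to the highest other tissue moved from -1.46 as deposited to -2.17 with TPM and -1.26 with median-ratio scaling.

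**Figure D2:**
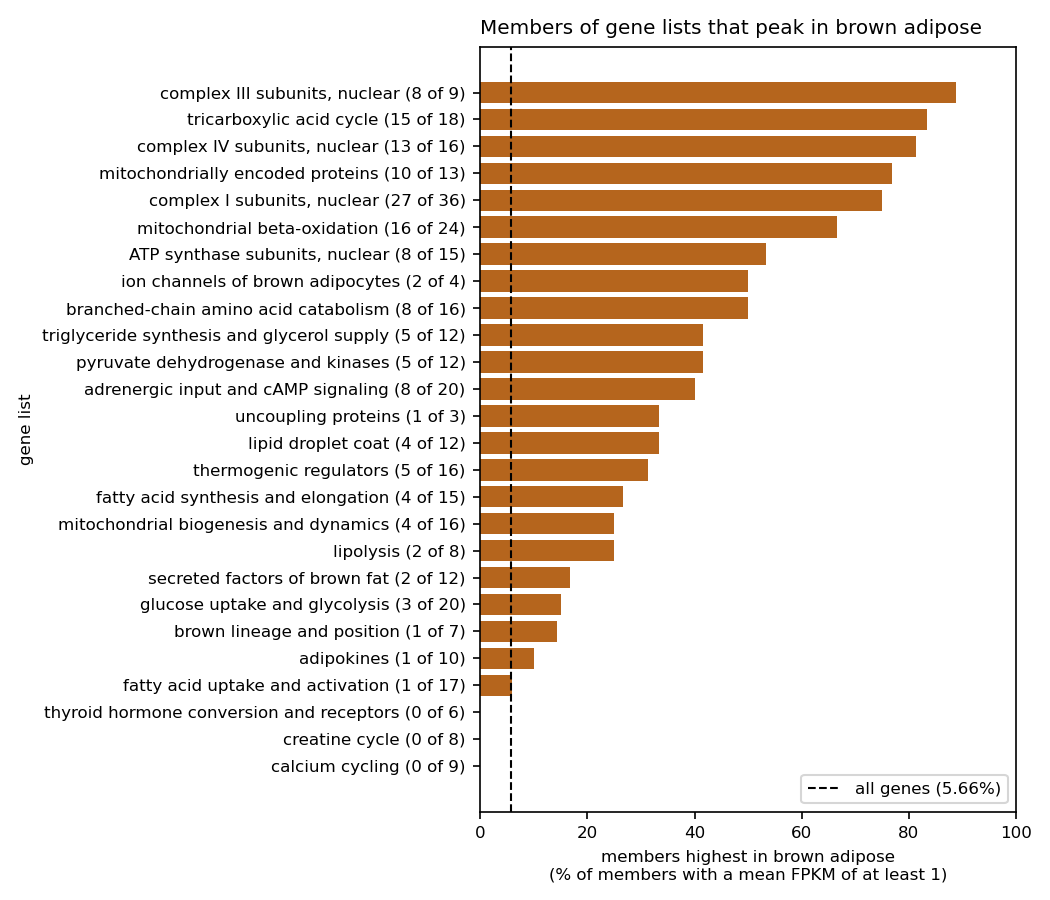
Share of the members of each of 26 gene lists with their highest FPKM in brown adipose among 7 tissues, 1 library each, counted over members with a mean of at least 1 FPKM. The bars of complex III (8 of 9), the tricarboxylic acid cycle (15 of 18) and complex IV (13 of 16) are the longest, the dashed line is the 5.66% of all genes, and the creatine, calcium and thyroid lists have no member there.

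The tricarboxylic acid cycle oxidises acetyl groups in the mitochondrial matrix and feeds electrons to the respiratory chain. Of its 18 genes, 15 were highest in BAT (83.3% beside 5.66% of all genes), with a median log2 ratio of 0.58. Beside the median of -1.46 over all genes this placed the list well up. The count was 11 to 15 over the 5 scalings. *Suclg1* and *Sucla2*, subunits of succinyl-CoA synthetase, had 393 and 728 FPKM in BAT against 117 in TA muscle and 261 in heart, their next tissues. The partner subunit *Suclg2*, which forms the GTP-dependent enzyme, had 35.1 in BAT and 84.4 in liver. *Cs*, citrate synthase, had 438 FPKM in BAT and 249.6 in heart, and *Idh3b* of the NAD-dependent isocitrate dehydrogenase 601 and 247. The members that did not peak in BAT were *Suclg2*, *Mdh2*, with 562 FPKM beside 948 in small intestine, and the anaplerotic pyruvate carboxylase gene *Pcx*, with 89.4 beside 231 in WAT.

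The nuclear subunits of the respiratory chain followed. In complex I, which takes electrons from NADH, 27 of 36 genes were highest in BAT, in complex III, which reduces cytochrome c, 8 of 9, and in complex IV, which reduces oxygen, 13 of 16. Together 48 of 61 peaked in BAT, beside 5.66% of all genes, with median log2 ratios of 0.46, 0.45 and 0.70. With median-ratio scaling the counts for complexes I, III and IV were 11, 3 and 10 and the medians of complexes I and III turned to -0.23 and -0.15. Against heart alone the medians over the 5 scalings were 0.11 to 0.56, 0.037 to 0.48 and 0.31 to 0.76. Over all genes the median against heart was 0 to 0.29. Against WAT the medians were 1.66, 2.13 and 1.90, and no scaling took them under 0.92. Over all genes the median against WAT was -1.14 to -0.02 over the 5 scalings. Examples are *Ndufb3* with 90.2 FPKM in BAT and 35.8 in heart, *Uqcr10* with 595 and 185 in BAT and TA muscle, and *Cox6c* with 544 and 217 in BAT and heart. Among the members higher in another tissue were the muscle isoform *Cox6a2*, described with the isoforms, and *Ndufa11* with 60.7 FPKM in BAT and 113 in heart.

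ATP synthase did not follow the chain to the same degree. Of its 15 nuclear genes, 8 were highest in BAT with a median log2 ratio of 0.02, and 2 with median-ratio scaling, where the median was -0.72. *Atp5b*, the β subunit of the catalytic head, was the most abundant nuclear gene of BAT that is no copy of a mitochondrial gene, with 4819 FPKM in BAT, 1574 in WAT, 3609 in heart, 2196 in TA muscle, 1178 in liver, 2145 in small intestine and 1003 in brain. In contrast, *Atp5h* of the peripheral stalk had 1869 FPKM in BAT and 2726 in heart, *Atp5j* 213 and 432, and *Atp5pb* 305 and 499.8. The largest deficit was in the c ring, the rotor that protons turn. Its gene *Atp5g1* had 2.21 FPKM in BAT, 6.51 in WAT, 265 in heart, 200.04 in TA muscle, 29.8 in liver, 61.9 in small intestine and 14.5 in brain. BAT was the lowest of the 7 tissues for *Atp5g1*, with a log2 ratio of -6.37 to heart, and the cold BAT libraries had 0.109, 2.18 and 0.269 FPKM. *Atp5g3*, another gene for the same mature c subunit, had 58.8 in BAT and 176 in heart, and *Atp5g2*, the remaining one, 25.6 and 18.2. The summed FPKM of the 3 genes was 86.6 in BAT, 74.3 in WAT, 72.8 in brain, 117.8 in liver, 252.5 in small intestine, 332.5 in TA muscle and 458.6 in heart. On this sum BAT stood with WAT and brain, whereas for *Atp5b* it stood above heart, both in FPKM as deposited. The plot of energy subunits against heart shows this split. It depends on the scaling, since median-ratio scaling divides BAT by 1.00, heart by 0.747, WAT by 1.58 and brain by 1.28.

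**Figure D3:**
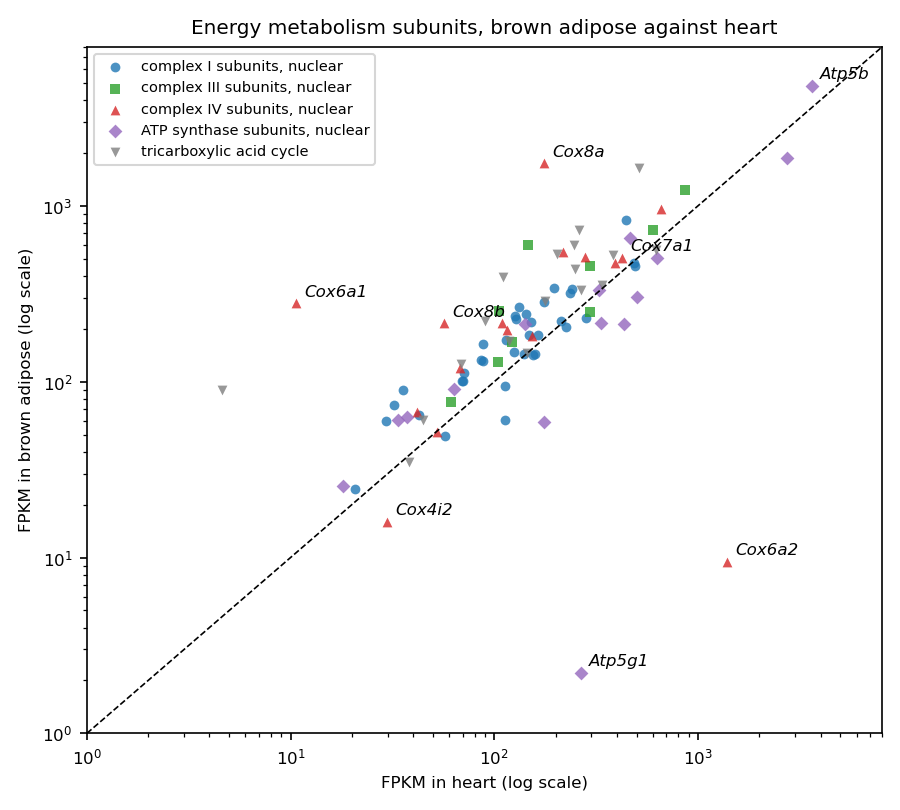
FPKM of each nuclear subunit of the respiratory chain, ATP synthase and the tricarboxylic acid cycle in brown adipose (vertical) and heart (horizontal), both on log scales, 1 library each, with the dashed line marking equal values. Most complex I, III and IV subunits lie above the line, while *Cox6a2* (9.48 FPKM in brown adipose) and *Atp5g1* (2.21 FPKM) lie far below it.

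Genes of the mitochondrial genome encode core subunits of the same complexes. Of the 13 protein genes, 10 were highest in BAT, with a median log2 ratio of 0.21, and 3 were highest with median-ratio scaling, where the median was -0.21. For each of them heart was the next tissue or was above BAT. *mt-Atp8* had 73719.9 FPKM in BAT and 40874 in heart, *mt-Co1* 66844 and 57163, and *mt-Co2* 7879.9 and 5046. The complex I genes *mt-Nd1*, *mt-Nd2* and *mt-Nd5* were higher in heart, with 23074, 28851 and 31242 FPKM beside 18626, 26674 and 21391 in BAT. Against WAT the median over the 13 genes was 2.86 on the log2 scale. *mt-Atp6* and *mt-Atp8* overlap each other, and the chromosome 1 copies share sequence with genes of this list.

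Of 16 genes that build and shape mitochondria 4 were highest in BAT (25% beside 5.66% of all genes), and 1 to 8 were over the 5 scalings. With median-ratio scaling it was 1 of 16 (6.25%), which did not exceed the 7.12% of all genes. As deposited the median log2 ratio was -0.26 and the 4 genes were *Letmd1*, *Gabpa*, *Opa1* and *Immt*. *Tfam*, which packages mitochondrial DNA, had 12.05 FPKM in BAT, 9.31 in WAT, 11.7 in heart, 8.63 in TA muscle, 14.1 in liver, 14.9 in small intestine and 8.77 in brain. Its range over the tissues was thus narrow. *Mfn1*, a mitochondrial fusion protein, had 21.6 FPKM in BAT and 70.4 in heart, while its relative *Mfn2* had 135 and 151.

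Fatty acids enter mitochondria through the carnitine shuttle and are shortened by β-oxidation. Of the 24 genes of this list, 16 were highest in BAT (66.7% beside 5.66% of all genes), with a median log2 ratio of 0.78. The count was 16 to 20 over the 5 scalings. *Cpt1b*, the muscle-type carnitine palmitoyltransferase at the outer membrane, had 154 FPKM in BAT, 0.963 in WAT, 90.1 in heart, 45.5 in TA muscle, 0.208 in liver and 1.39 in small intestine, and was listed at 0 in brain. WAT and BAT were thus far apart for this gene, while 79.7% of its 31-base words are shared with the readthrough gene *Gm44502* and part of its reads may be assigned there. *Slc25a20*, the carnitine-acylcarnitine carrier, had 140.3 FPKM in BAT and 62.3 in heart. Among the acyl-CoA dehydrogenases, *Acadl* for long chains had 1199.7 FPKM in BAT, 164 in WAT, 551 in heart, 169.9 in TA muscle, 137 in liver, 116 in small intestine and 27.1 in brain. *Acadvl* had 513 in BAT and 223 in heart, and *Acadm* 888 and 616. For the later steps, *Hadh* was at 343 FPKM against 139 in heart, *Echs1* at 149 against 54.6 in WAT and *Acaa2*, the final thiolase, at 863 against 394 in liver. The electron transfer flavoprotein genes *Etfa* and *Etfb* had 598 and 599.7 in BAT and 245 and 270.02 in heart, while their oxidoreductase *Etfdh* was level with heart at 249 and 253. *Hadha*, the α subunit of the trifunctional protein, had 305 in BAT and 355 in heart, whereas the β subunit *Hadhb* had 345 and 164.

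Of 17 genes of fatty acid uptake and activation 1 was highest in BAT, 5.88% beside 5.66% of all genes. Over the 5 scalings the count was 1 to 4. As deposited the gene was *Angptl4*, a secreted inhibitor of lipoprotein lipase, with 78.9 FPKM in BAT and 36.02 in WAT. *Lpl*, the lipase itself, had 402 FPKM in BAT, 533 in heart and 1369.6 in WAT, and *Cd36*, a fatty acid transporter, 416, 272 and 906. *Fabp4*, the fatty acid-binding protein of adipocytes, had 3719.8 in BAT and 6374 in WAT. WAT held more of these 3 transcripts than BAT. *Fabp3*, the heart-type binding protein, was placed the other way, with 705 FPKM in BAT, 1451 in heart, 196 in TA muscle and 6.23 in WAT.

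Lipid droplet and lipolysis genes were shared with WAT, while 33.3% and 25% of them were highest in BAT, beside 5.66% of all genes. Of 12 droplet coat genes, 4 were highest in BAT: *Cidea*, *Plin5*, which ties droplets to mitochondria, *G0s2*, an inhibitor of adipose triglyceride lipase, and *Plin2*. *Plin5* had 59.2 FPKM in BAT, 3.57 in WAT, 30.00 in heart, 10.4 in TA muscle and 14.9 in liver, and was listed at 0 in small intestine and brain. For *Plin5*, as for *Cpt1b*, heart was the next tissue, and WAT was much lower. *Plin1*, the main coat protein of adipocytes, had 379 FPKM in BAT and 885 in WAT, and *Cidec*, the relative of *Cidea* in white fat, 518 and 1357. Of 8 lipolysis genes 2 were highest in BAT, *Pnpla2* and the glycerol channel gene *Aqp7*. *Pnpla2*, adipose triglyceride lipase, had 932 FPKM in BAT and 731 in WAT, *Lipe*, hormone-sensitive lipase, 388 and 505, and *Mgll*, monoglyceride lipase, 53.1 and 147. With TPM no lipolysis gene was highest in BAT, and with the copies left out 4 were, so the count depends on the scaling.

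Of 15 fatty acid synthesis genes, 4 were highest in BAT (*Acaca*, *Acacb*, *Acly* and *Thrsp*), beside 5.66% of all genes. The median log2 ratio was -0.75. *Acacb*, the acetyl-CoA carboxylase of the mitochondrial surface, was clearest, with 95.5 FPKM in BAT, 22.7 in WAT, 28.4 in heart, 26.7 in TA muscle, 11.4 in liver, 2.99 in small intestine and 0.462 in brain. *Fasn*, fatty acid synthase, had 71.7 FPKM in BAT, 121 in WAT and 52.7 in liver, and *Acly*, which makes cytosolic acetyl-CoA, 83.7, 83.1 and 64.6. *Scd1*, the stearoyl-CoA desaturase, had 1148 in BAT, 1040.2 in liver and 3794 in WAT. *Elovl3*, an elongase usually named as a brown fat marker, had 0.0862 FPKM in BAT and 6.84 in liver, and its 3 cold BAT values were 135, 114 and 142. In triglyceride synthesis 5 of 12 genes were highest in BAT, beside the same 5.66% of all genes. Beside *Gpd1* these include its mitochondrial counterpart *Gpd2*, with 87.7 FPKM against 37.04 in small intestine and 7.98 in WAT, *Pck1*, the phosphoenolpyruvate carboxykinase of glyceroneogenesis, with 919.9 against 604 in liver, and *Dgat2*, which adds the last acyl chain, with 478 against 355 in WAT. *Gpd1* and *Gpd2* together form the glycerol phosphate shuttle, and both peaked in BAT.

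Transcriptional regulators of thermogenesis were mostly shared with other tissues, and 5 of 16 peaked in BAT, beside 5.66% of all genes. Their median log2 ratio was -0.37. The coactivator *Ppargc1a*, given as a marker of this tissue, was not highest in BAT. It had 9.17 FPKM in BAT, 2.56 in WAT, 19.96 in heart, 3.85 in TA muscle, 2.24 in liver, 8.90 in small intestine and 12.8 in brain. Its relative *Ppargc1b* was, with 21.96 FPKM in BAT, 2.51 in WAT, 4.64 in heart, 2.39 in TA muscle, 1.07 in liver, 8.75 in small intestine and 2.36 in brain. The log2 ratio of *Ppargc1b* was 1.23. *Ppara*, the fatty acid-sensing receptor, had 41.99 FPKM in BAT and 26.9 in liver, and *Cebpb*, an adipogenic factor, 118 and 51.8. *Pparg*, the master regulator of adipocytes, had 103 in BAT and 133 in WAT, and *Ebf2*, a factor of brown identity, 10.7 and 10.8, so these did not separate the adipose tissues by level. *Prdm16*, a determinant of brown fate, had 8.00 FPKM in BAT, 7.13 in small intestine and 3.53 in WAT. Of 7 brown lineage and positional genes that passed, 1 was highest in BAT, *Ebf3*, with 10.5 FPKM beside 8.98 in WAT. *Zic1*, a positional gene of brown fat, had 2.81 FPKM in BAT, 10.8 in brain and was listed at 0 in WAT, and the cold BAT libraries had 2.53, 2.06 and 0.974. *Lhx8*, which was under the filter, had 2.92 FPKM in BAT and 2.51 in brain and was listed at 0 in the other tissues.

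Of 20 genes of adrenergic input and cAMP signaling, 8 were highest in BAT, beside 5.66% of all genes. Among the receptors, *Adrb3*, the β3-adrenergic receptor of fat, had 23.1 FPKM in BAT and 339 in WAT. *Adrb1* had 9.16 FPKM in BAT, 5.59 in brain and 1.83 in WAT. Downstream, *Gnas* of the stimulatory G protein had 385 FPKM in BAT and 222 in brain, *Adcy3*, an adenylate cyclase, 18.8 and 10.1, and *Akap1*, which anchors protein kinase A at mitochondria, 60.01 with 26.5 in liver. *Prkar2b*, the regulatory subunit of protein kinase A in fat, had 191 FPKM in BAT and 294 in WAT. No thyroid gene peaked in BAT. *Dio2*, which activates thyroid hormone, had 6.82 FPKM in BAT, 10.9 in brain and 0.399 in WAT, and 16.4, 50.3 and 25.02 in the cold BAT libraries.

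Creatine and calcium cycling genes, known for other routes to heat, did not peak in BAT. Their lists hold genes used in muscle, such as *Ckm* and *Atp2a1*. A ratio to the highest other tissue therefore says little of these routes in BAT. None of 8 creatine cycle genes peaked there, with a median log2 ratio of -4.12. *Ckb*, the brain-type creatine kinase, had 45.2 FPKM in BAT, 500.05 in brain and 203 in small intestine, *Gatm*, which starts creatine synthesis, 1.84 in BAT and 45.7 in brain, and *Slc6a8*, the creatine transporter, 12.6 in BAT and 81.02 in small intestine. None of 9 calcium cycling genes peaked in BAT (median -6.30). Against WAT alone the medians were 0.10 for the creatine list and 0.25 for the calcium list, beside -0.50 over all genes. Of the members, 4 of 8 and 8 of 9 were higher in BAT than in WAT, beside 3053 of all 14692 genes. Of 14 fast muscle markers 12 were higher in BAT than in WAT, with a median of 0.76, so the calcium count is no trait of that list alone. *Atp2a2*, the calcium pump shared by most tissues, had 35.2 FPKM in BAT and 1709 in heart. *Atp2a1*, the calcium pump of fast muscle, had 29.2 FPKM in BAT and 5172 in TA muscle, and *Ckm*, muscle creatine kinase, 18.8 and 3969. These genes and *Casq1* are also fast muscle markers, and the 14 genes of that marker list lay at 0.316% to 1.72% of their TA muscle level in BAT. The median was 0.484%, with 0.270% in WAT and 0.545%, 0.690% and 0.440% in the cold BAT libraries, and its part in the values of *Atp2a1*, *Ckm* and *Casq1* was not tested. *Ucp2* and *Ucp3* were higher in other tissues, with 19.3 FPKM of *Ucp2* beside 151 in small intestine and 34.3 of *Ucp3* beside 46.5 in TA muscle. *Kcnk3*, a potassium channel that sets the membrane potential of brown adipocytes, had 71.1 FPKM in BAT, 52.3 in heart and 4.89 in WAT.

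Isoform choice was compared as the share of 1 gene in the summed FPKM of its set, a ratio within a library that scaling between libraries does not change. BAT used some muscle isoforms and not others. *Cox7a1*, the muscle form of subunit 7a of complex IV, made up 88.3% of its set in BAT, 91.1% in heart and 89.5% in TA muscle. It held 55.4% in small intestine and 3.39% in WAT. *Cpt1b* likewise held 98.1% of its set in BAT, 90.9% in heart and 4.30% in WAT. *Cox6a2*, the muscle form of subunit 6a, instead held 3.27% in BAT, 99.2% in heart and 99.5% in TA muscle. Thus within complex IV the muscle form prevailed for subunit 7a and the general form *Cox6a1* for subunit 6a. *Cox8b*, the muscle form of subunit 8, lay between, at 10.9% in BAT, 24.5% in heart and 57.2% in TA muscle, and at 49.8%, 26.2% and 28.7% in the cold BAT libraries. Its level was highest in BAT all the same, at 214 FPKM beside 75.5 in TA muscle, and *Cox8a* was highest in BAT too, with 1757.

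In glycolysis the general enolase and the liver phosphofructokinase held the larger shares in BAT. *Eno1* held 96.3% of its pair with *Eno3* in BAT, 91.1% in WAT, 96.5% to 98.8% in liver, small intestine and brain, and 1.04% in TA muscle. The liver form *Pfkl* held 64.1% of phosphofructokinase in BAT, 64.2% in liver, 43.5% in WAT and 8.88% in heart. The muscle form *Pfkm* held 25.2% in BAT, but 4.45%, 6.12% and 5.55% in the cold BAT libraries, where *Pfkl* held 79.2%, 82.8% and 82.8%. For glucose entry, however, *Slc2a4*, the insulin-responsive transporter, held 96.2% in BAT, 89.1% in WAT and 98.2% in TA muscle. *Hk2* held 82.9%, 69.7% and 96.5% of the hexokinase pair in these tissues, so WAT shared both traits. The regulatory subunit *Prkar2b* held 96.2% of its pair in BAT and 93.9% in WAT, against 49.5% in brain and 0.0606% in heart. The highest shares were thus those of the adipose tissues. *Pdk4*, a kinase that shuts pyruvate dehydrogenase, held 68.2% of its set in BAT, 30.3% in heart and 9.78% in WAT. Among the CIDE proteins *Cidea* held 75.7% in BAT, and in WAT *Cidec* held 99.9%. The isoform sets were chosen after values had been seen.

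**Figure D4:**
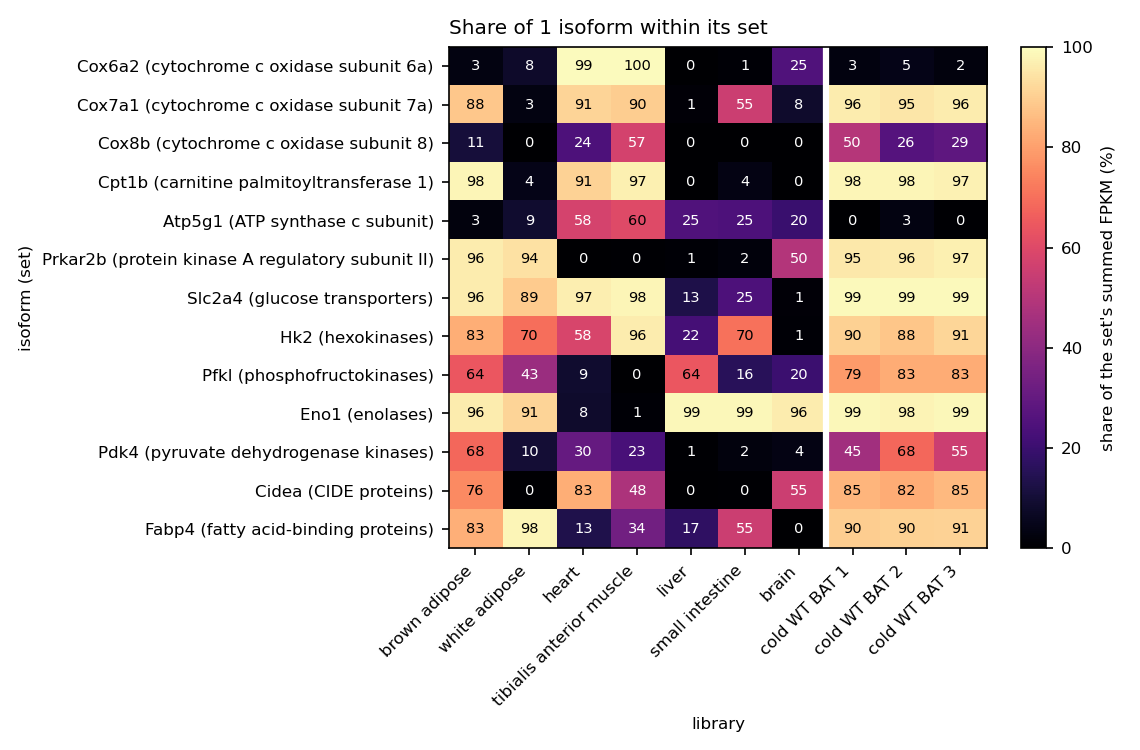
Share in percent of 1 named isoform in the summed FPKM of its set, for 13 isoforms (rows) in the 7 tissues and in 3 cold BAT libraries of a separate table (columns), 1 library per column. Brown adipose lies near heart for *Cox7a1* (88.3% and 91.1%), far under heart for *Cox6a2* (3.27%) and *Atp5g1* (2.56%), and near white adipose for *Prkar2b* (96.2% and 93.9%).

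Of 20 genes of glucose uptake and glycolysis, 3 were highest in BAT (*Eno1*, *Pfkl* and *Pgam1*), with a median log2 ratio of -2.20. The forms used in muscle were far higher in TA muscle, such as *Aldoa*, aldolase A, with 4373 FPKM beside 473 in BAT. At the entry of pyruvate into mitochondria, *Pdha1* of pyruvate dehydrogenase had 507 FPKM in BAT and 401 in heart, and *Pdk4* had 315 FPKM in BAT, 8.06 in WAT, 83.8 in heart, 61.9 in TA muscle, 0.566 in liver, 1.60 in small intestine and 2.57 in brain. Branched-chain amino acids, a fuel of brown fat, are broken down by the 16 genes of another list. Of these 16 genes, 8 were highest in BAT, beside 5.66% of all genes. Among them *Bckdha* of the branched-chain ketoacid dehydrogenase had 82.4 FPKM in BAT and 54.98 in WAT, *Hibch* 150.1 and 114, and *Slc25a44*, the mitochondrial carrier of these amino acids, 17.5 in BAT and 16.96 in liver. The count was 1 to 11 over the scalings, so the count depends on it.

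Of 12 secreted factors of brown fat that passed the filter, 2 were highest in BAT, *Vegfa* and its relative *Vegfb*, beside 5.66% of all genes. *Vegfa*, an angiogenic factor, had 191 FPKM in BAT, 81.04 in WAT, 74.4 in heart, 70.5 in TA muscle, 65.5 in liver, 27.7 in small intestine and 30.5 in brain. *Nrg4*, a growth factor released by fat, had 91.4 FPKM in BAT and 117 in WAT, and under 10 elsewhere. *Fgf21*, *Bmp8b*, *Gdf15* and *Il6* did not pass. Of 10 adipokines, *Nampt* alone was highest in BAT, and 7 were at least 4-fold lower than in WAT, beside 5.19% of all genes. *Lep*, leptin, had 73.2 FPKM in BAT and 567 in WAT, *Retn*, resistin, 7.72 and 312, and *Adipoq*, adiponectin, 534 and 1699.

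Markers of cell types were examined for the whole lists. Of 15 brown adipocyte markers that passed, 9 were highest in BAT and 4 were called, beside 5.66% and 0.150% of all genes. *Ppargc1a*, *Adrb3*, *Dio2*, *Elovl3*, *Ebf2* and *Zic1* were higher in another tissue. *Ucp1* and *Cidea* thus matched the label and *Ppargc1a* did not set BAT apart. Of 12 general adipocyte markers, all above 5 FPKM in BAT, 1 was highest there, *Pnpla2*, and 0 to 4 were over the 5 scalings. None of 11 white and positional markers peaked in BAT, and 10 were at least 4-fold lower than in WAT, beside 5.19% of all genes. *Hoxc8*, a positional gene, had 3.12 FPKM in BAT and 205 in WAT, and *Hoxc9*, *Hoxc10*, *Tcf21* and *Wt1* were listed at 0 in BAT. Of 8 macrophage markers 6 were at least 4-fold lower in BAT than in WAT, for example *Cd163* with 4.45 and 45.2 FPKM, and of 8 fibroblast and matrix markers 5. The share over all genes was the same 5.19%. Of 8 endothelial markers 2 were highest in BAT, and 0 to 5 were over the 5 scalings, beside 2.19% to 12.3% of all genes. Of them 1, *Vwf*, was at least 4-fold lower in BAT than in WAT, and *Cdh5* had 117 and 125 FPKM. The 8 heart muscle markers summed to 1.20 FPKM in BAT, with *Nppa*, *Nppb* and *Myl7* listed at 0. The 8 hepatocyte markers summed to 108.0 FPKM, of which *Cyp2e1* made 101, beside 1990.3 in WAT. In bulk tissue, fewer cells of a type and less RNA per cell cannot be told apart.

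Among the 6 tissues, WAT was the most alike to BAT across the 14692 genes, with a Spearman rank correlation of 0.878, followed by heart with 0.813 and TA muscle with 0.768. Liver had 0.657, small intestine 0.563 and brain 0.506. These are correlations across genes of single libraries and are given as a description. For scale, the 3 cold BAT libraries had 0.931 to 0.938 with the BAT library.

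Against WAT, 211 genes (1.44%) were at least 4-fold higher in BAT and 762 (5.19%) lower, so that 21.7% of these calls were higher in BAT. WAT was also the only one of the tissues whose RNA was isolated with a commercial kit, TRIzol being used for the others, so tissue and isolation cannot be told apart in this pair. The split depended on the scaling. The median log2 difference over all genes was -0.50 as deposited, -0.43 for nuclear genes rescaled to a common sum, -1.14 for TPM and -0.02 with median-ratio scaling, and calls higher in BAT made up 51.5% with median-ratio scaling (349 against 329), 4.93% with TPM and 33.7% when the near-identical copies were left out. Apart from *Ucp1*, listed at 0 in WAT, the largest differences toward BAT were in *Cidea* at 10.21 on the log2 scale, *Cox7a1* at 8.16, *Cox8b* at 7.15, *Fabp3* at 6.61, *Cpt1b* at 6.30 and *Pdk4* at 5.12, beside some mitochondrial tRNA genes. These named genes act in mitochondria or in the handling of fatty acids. Toward WAT they were in *Emp1*, an epithelial membrane protein, at -6.50, *Sult1e1*, estrogen sulfotransferase, at -6.47, *Penk*, proenkephalin, at -6.12, *Agt*, angiotensinogen, at -5.85, *Hoxc8* at -5.65 and *Sncg*, γ-synuclein, at -5.64. *Sncg* had 29.1 FPKM in BAT and 1506 in WAT.

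Against heart, 589 genes (4.01%) were at least 4-fold higher in BAT and 463 (3.15%) lower. The share of calls higher in BAT was 56.0% as deposited and 41.7% with median-ratio scaling, and the median difference was 0.22 as deposited. Genes of the adipocyte led, with *Car3*, carbonic anhydrase 3, at 2305 FPKM in BAT and 1.91 in heart, *Pck1* at 919.9 and 0.361, and *Adipoq* at 534 and 0.219. Sarcomere genes were on the other side, with *Myh6*, the α myosin heavy chain, at 0.0250 FPKM in BAT and 14088 in heart and *Tnnt2*, cardiac troponin T, at 0.0451 and 11404. BAT and heart thus parted in adipocyte and contractile genes. *Mb*, myoglobin, which stores oxygen in muscle, had 13.3 FPKM in BAT and 6733 in heart.

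Against TA muscle, 1191 genes (8.11%) were at least 4-fold higher in BAT and 562 (3.83%) lower. Calls higher in BAT were 67.9% as deposited, 42.4% with median-ratio scaling, 80.7% for rescaled nuclear genes and 85.6% without the near-identical copies, with a median difference of 0.44 as deposited and 0.75 for rescaled nuclear genes. The highest differences toward BAT were *Cidea*, *Pck1*, *Adipoq*, *Cidec* and *Scd1*, beside *Ucp1*, which was listed at 0 in TA muscle, and those toward muscle were fast-fiber genes such as *Tnnc2*, fast troponin C, with 175 FPKM in BAT and 55389 in TA muscle.

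The 3 cold WT BAT libraries belong to another table that was normalized separately. Temperature and table differ at once, and age and diet may differ too. The values are therefore set side by side, and no comparison was tested. Of the 19 nuclear genes called high, 17 lay above the highest of the 6 other tissues in all 3 cold libraries and 10 lay at least 4-fold above. Over all genes, cold library 1 in place of the BAT library gave 1087 of 14732 highest in BAT and 187 called at 4-fold. *Ucp1* had 3792, 3095 and 2778 FPKM in the cold libraries beside 467 in the 7-tissue BAT library, and *Cidea* 3334, 2889 and 3386 beside 1638. *Gpd1* had 4054, 3714 and 3791, and *Letmd1* 102, 91.5 and 87.4. All 4 were higher in the cold libraries. *Impdh1* was lower, with 41.3, 40.8 and 43.9 beside 414, and *Coq8a* had 139, 152 and 156 beside 536. Of the 22 called genes, the BAT library was below the cold range for 9, within it for 0 and above it for 13. Over all genes it was below all 3 cold libraries for 19.6% and above all 3 for 54.4%, so the count above is near that share.

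Of 14680 genes in both tables, 78 (0.531%) were at least 4-fold higher in the BAT library than in each cold library and 107 (0.729%) at least 4-fold lower. Without a cutoff, 54.4% of the genes were above all 3 cold libraries and 19.6% below all 3, which is the background for the list counts. In fatty acid synthesis 14 of 15 genes were below all 3 cold libraries, 5 of them at least 4-fold, with a median log2 difference of -2.06 beside 0.19 over all genes. *Fasn* had 1043, 1040.2 and 866 FPKM in the cold libraries beside 71.7, *Acly* 1105, 734 and 738 beside 83.7, and *Acsl5*, an acyl-CoA synthetase, 259.99, 206 and 214 beside 8.16. On the other side, *Lep* had 6.24, 2.28 and 6.44 FPKM in the cold libraries beside 73.2, and *Nnat*, neuronatin, 2.65, 4.01 and 2.89 beside 70.5. Fibroblast markers (8 of 8) and endothelial markers (8 of 8) were above all 3 cold libraries, as were 7 of 8 macrophage markers and 54.4% of all genes, whereas 5 of 5 erythrocyte markers were below all 3. The part of these cells in the differences was not tested. Of the tricarboxylic acid cycle genes 15 of 18 were below all 3 cold libraries, with a median log2 difference of -0.35. The plot of the BAT library beside the cold libraries shows 22 such genes.

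**Figure D5:**
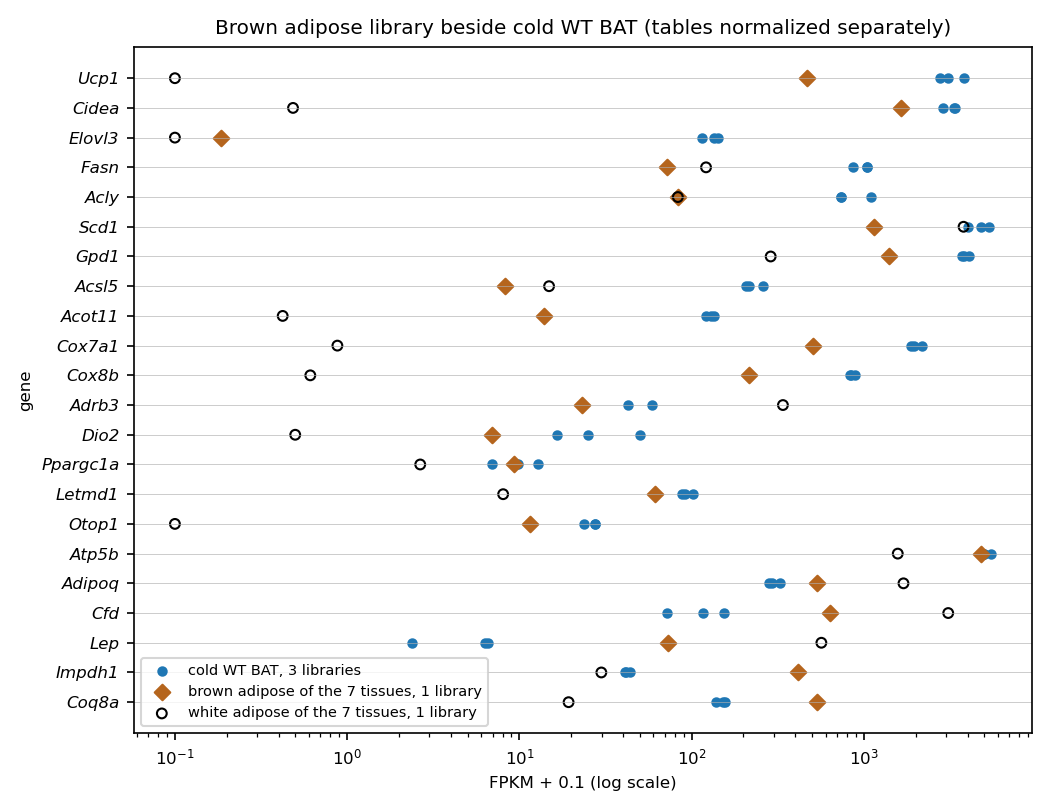
FPKM + 0.1 (log axis) of 22 genes in the brown adipose library of the 7 tissues (diamonds), the white adipose library of the same table (open circles) and 3 cold WT BAT libraries of a separately normalized table (blue points). *Elovl3*, *Fasn*, *Acly*, *Acsl5* and *Ucp1* lie to the left of the cold points in the 7-tissue library, while *Lep*, *Impdh1* and *Coq8a* lie to the right.

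*Rpl17*, a ribosomal protein gene, and the pseudogene *Rpl17-ps3* were opposed between the tables. *Rpl17* had 159.4 FPKM in the BAT library and 11.7, 7.70 and 8.47 in the cold libraries, and *Rpl17-ps3* 1.94 and 132.5, 106.9 and 135.4. *Rpl7a*, another ribosomal protein gene, had 128.9 FPKM beside 2.71, 2.21 and 2.66. Whether reads were assigned to processed copies in the same way in both tables was not tested.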

How the data were processed

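RNA-Seq of 7 tissues of WT mice, 1 library each, was used together with 3 WT BAT libraries from mice in the cold. The deposited values are FPKM that the authors made with StringTie after trimming with fastp and alignment with HISAT2 to mm10 (GRCm38). Poly(A) RNA was selected with oligo(dT) and primed at random, and reads were aligned as unstranded. The submitters' processing notes name HISAT2 2.1.0 and Bowtie2 2.4.1. The inguinal WAT table also holds the authors' base means, fold changes, p-values and FDR, which were not used. Fragment counts were not used here, so depth was estimated from the steps between low FPKM values, and precision is limited by 1 library per tissue.

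Each gene was used once, and genes with a mean of at least 1 FPKM over the 7 tissues were kept. Ratios are on the log2(FPKM + 1) scale, which understates the change of low genes. A gene was called at a ratio of at least 4-fold to the highest, lowest or single other tissue. No test was run. The members, gene lists and comparisons were chosen with earlier results of these data known. Genes named were the called genes, the 15 most abundant nuclear genes, the 10 largest pairwise differences each way, the mitochondrial genes, and members of the gene and marker lists. The isoform sets, the promoters shown, and *Lrrfip1*, *Arhgef10l*, *Ntrk3*, *Gm9899*, *Lctl*, *Rpl17*, *Rpl17-ps3* and *Rpl7a* were chosen after values had been seen. Alternatives were other pseudocounts, filters, cutoffs and scalings, protein-coding genes alone, and other sets of tissues or BAT libraries. The calling step was tested on simulated data with known calls. Promoters were RefSeq windows of GRCm38.p6. Calculations used Python 3.11.15, numpy 2.4.6, pandas 2.3.3 and matplotlib 3.10.9.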

Additional observations from a re-analysis of the deposited data

How the results depend on the processing

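No paired analysis was possible because each tissue has 1 library and the results come from no test. Of the alternatives for the counts, 56 stayed within 1.5 times the value given and 65 did not. The removal of near-identical copies was chosen after seeing the data, as was the use of cold BAT libraries for list medians and for the genes highest in BAT. Except where stated, the cause of a move was not tested.

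Genes called high in BAT numbered 22. They were 117 at a 2-fold and 7 at an 8-fold cutoff, 13 among protein-coding genes, 41 for nuclear genes rescaled to a common sum, of which 19 were among the 22, and 63 without the copies. They were 40 without heart and 108 without WAT among the other tissues, where fewer tissues are compared, and 187, 172 and 171 with the cold BAT libraries in place of the BAT library. Genes highest in BAT, 831 as deposited, were 362 with TPM, 1261 for nuclear genes, 2156 without the copies and 2280 with no filter on low values. Genes called low, 0 as given, were 19 at a 2-fold cutoff, 15 and 54 with pseudocounts of 0.1 and 0.01, 5 with TPM, 2 for nuclear genes and 1 without the copies.

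Against WAT, 211 genes were higher in BAT and 762 lower. At 2-fold these were 630 and 3659, at 8-fold 72 and 197, with a pseudocount of 0.1 352 and 1769, with 0.01 513 and 2265, with TPM 138 and 2661, with median-ratio scaling 349 and 329, and for nuclear genes 320 and 1249. Without the copies 493 were higher, and with a mean of at least 5 FPKM 499 were lower. The cold BAT libraries gave 451, 447 and 434 higher and 1516, 1517 and 1443 lower.

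Against heart, 589 were higher and 463 lower. At 2-fold these were 2266 and 1038, at 8-fold 218 and 259, with a pseudocount of 0.1 1296 and 791, with 0.01 1744 and 1060, for nuclear genes 1017 and 755, and without the copies 1237 and 802. Against TA muscle, 1191 were higher and 562 lower. At 2-fold these were 4222 and 1129, at 8-fold 346 and 335, with a pseudocount of 0.01 3587 and 1017, and with median-ratio scaling 677 and 919. The higher genes were 2893 with a pseudocount of 0.1, 2803 for nuclear genes and 3792 without the copies.

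List medians were tallied for a pseudocount of 0.1, for nuclear genes and for the 3 cold BAT libraries, where 146 moved little and 68 moved more. The sign differed for 3 of the 42 lists that have a value with nuclear genes. Of 43 lists it differed for 0 with a pseudocount of 0.1, and for 6, 5 and 7 with the cold BAT libraries. TPM, median-ratio scaling and the removal of the copies are not in this tally. With median-ratio scaling the medians of complexes I and III, ATP synthase and the mitochondrially encoded proteins turned negative. Those of triglyceride synthesis and the endothelial markers turned positive. With TPM the medians of ATP synthase, the ion channels and the brown adipocyte markers turned negative.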

Other observations

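Beside the genes of heat and fuel, the most abundant nuclear genes of BAT, apart from copies of mitochondrial genes, included secreted and protective proteins. *Apoe*, apolipoprotein E, had 3262 FPKM in BAT and 21983 in liver, *Gpx3*, the secreted glutathione peroxidase, 2081 in BAT and 899 in WAT, and *Car3*, carbonic anhydrase 3, 2305 in BAT and 10795 in WAT. *Kng2*, a kininogen, had 45.3 FPKM in BAT, 98.8 in liver and 1.22 in WAT. *S100b*, a calcium-binding protein of glia that brown adipocytes also make, had 24.9 FPKM in BAT, 58.1 in brain and 1.22 in WAT. For *Kng2* and *S100b* the WAT library was thus far below the BAT library, and the cold BAT libraries had 65.5, 54.7 and 58.0 FPKM of *Kng2* and 37.6, 30.9 and 43.3 of *S100b*.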
